A study of Arabidopsis thaliana with 11 samples.

Results

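The genes described here are 9 transcription factors that specify and maintain the stem cell niche of the Arabidopsis root, *PLT1* (AT3G20840), *PLT2* (AT1G51190), *PLT3* (AT5G10510, named *AIL6* in the RefSeq annotation), *SHR* (AT4G37650), *SCR* (AT3G54220), *JKD* (AT5G03150), *MGP* (AT1G03840), *WOX5* (AT3G11260) and *BRAVO* (AT5G17800, also *MYB56*). They were taken by gene identifier as established regulators of the niche, by a rule with no threshold on their values, and are 9 of the 33341 genes counted. They were chosen with earlier results of these data known, so their counts are not those of a set chosen without sight of the data. RNAseq was applied to roots of soil-grown *Arabidopsis thaliana* plants, in a design that crossed genotype with watering. WT plants were Col-0, and *BRL3ox* plants carried 35S:BRL3, which drives the brassinosteroid receptor BRL3, fused to GFP, from a promoter active in most cells and not from its own vascular one. In each genotype, control plants were watered normally and drought plants received no water for 5 days, and the roots were labelled as mature roots of 28 days old plants. WT control, WT drought and *BRL3ox* drought were each represented by 3 samples, and *BRL3ox* control by 2, labelled replicates 1 and 3 (replicate 2 was not analysed here). The submitters call the samples biological replicates, and no source used here says whether each came from 1 plant or from several.

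The root stem cell niche lies at the root tip, where a small group of rarely dividing cells, the quiescent centre, keeps the surrounding stem cells undifferentiated. The PLETHORA (PLT) proteins act there in a dose-dependent way downstream of auxin, while SHR moves from the stele into the neighbouring layer and, together with SCR and the zinc finger proteins JKD and MGP, sets up the endodermis and the quiescent centre. WOX5 acts from the quiescent centre on the root cap stem cells, and BRAVO holds back divisions of the quiescent centre and is repressed by brassinosteroid signalling.

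Each library held between 18610736 and 22817390 counts on genes, and no replicates of 1 group agreed within sampling noise. *BRL3* itself was measured at 44.8 to 70.8 CPM (counts scaled to library size) in the WT samples and at 974 to 3180 CPM in the *BRL3ox* samples, so that the genotypes did not overlap. The root marker *PYK10*, a root beta-glucosidase gene, lay between 1993 and 3554 CPM in the 11 samples, and the summed level of 6 shoot markers, among them *RBCS1A*, between 6.10 and 113 CPM, with its highest value in WT control replicate 2 and at most 54.8 CPM in any drought or *BRL3ox* sample. All values below are CPM scaled by the trimmed mean of M values (TMM) unless they are given per kilobase (kb) of exon. Because whole root systems were sampled, fewer cells of a type and less RNA per cell cannot be told apart in any of these values.

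All 9 regulators were detected in each of the 11 samples and were among the 20718 genes tested. Per kb of exon, the mean level over the 11 samples ran from 14.9 CPM per kb for *PLT3* and 13.5 CPM per kb for *SHR* through 9.0 for *SCR*, 8.17 for *JKD*, 4.01 for *PLT1*, 3.67 for *MGP* and 2.38 for *PLT2* to 1.69 for *BRAVO* and 0.949 for *WOX5*. The number of counts behind a value was at least 199 in *PLT3*, *SHR*, *SCR* and *JKD*, 55 to 302 in *PLT1*, *PLT2* and *MGP*, 18 to 91 in *BRAVO* and 9 to 31 in *WOX5*, which makes the last of these the least precise. None of the 45-base stretches of their exons, the read length left after trimming, occurs a second time in the genome. On the TAIR10.1 assembly, *PLT3* (chromosome 5, 3315401 to 3320323) overlaps the protein-coding gene AT5G10520 on the opposite strand. Whether strand was used in counting is not given in the sources used here, so reads of these overlapping genes cannot be told apart. The other 8 regulators overlap no annotated gene.

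A gene was called deregulated at a fold change over 1.5 and a false discovery rate (FDR) under 0.05 in the quasi-likelihood test of edgeR, where p-values were adjusted over all genes tested by the Benjamini-Hochberg method. With drought in *BRL3ox* roots, *SHR*, *SCR*, *JKD* and *MGP* were called lower (4 of 9 regulators, beside 6.98% of all genes tested called lower and 16.1% called in either direction). The fall was not particular to these 4. *PLT1* (log2 fold change -0.74) and *BRAVO* (-1.03) fell by more than *SCR* (-0.70) without being called. In WT roots *JKD* fell as the 1 regulator called, beside 4.84% of genes called lower and 12.4% in either direction. In drought, *BRL3ox* roots held less *BRAVO* than WT roots (1 of 9, beside 2.12% of genes called lower and 3.51% in either direction). At basal conditions none of the 9 was called, beside 0.772% of genes, 1 of them had an unadjusted p under 0.05 (16.0% of all genes did), and none was called by DESeq2 either. The genotype by drought interaction was called at an unadjusted p under 0.0025, and none of the 9 passed it in edgeR, beside 0.951% of genes, while *MGP* and *BRAVO* had an unadjusted p under 0.05 (10.8% of all genes) and DESeq2 called *MGP*. These comparisons share samples, so their values for 1 gene are not independent of each other.

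**Figure D1:**
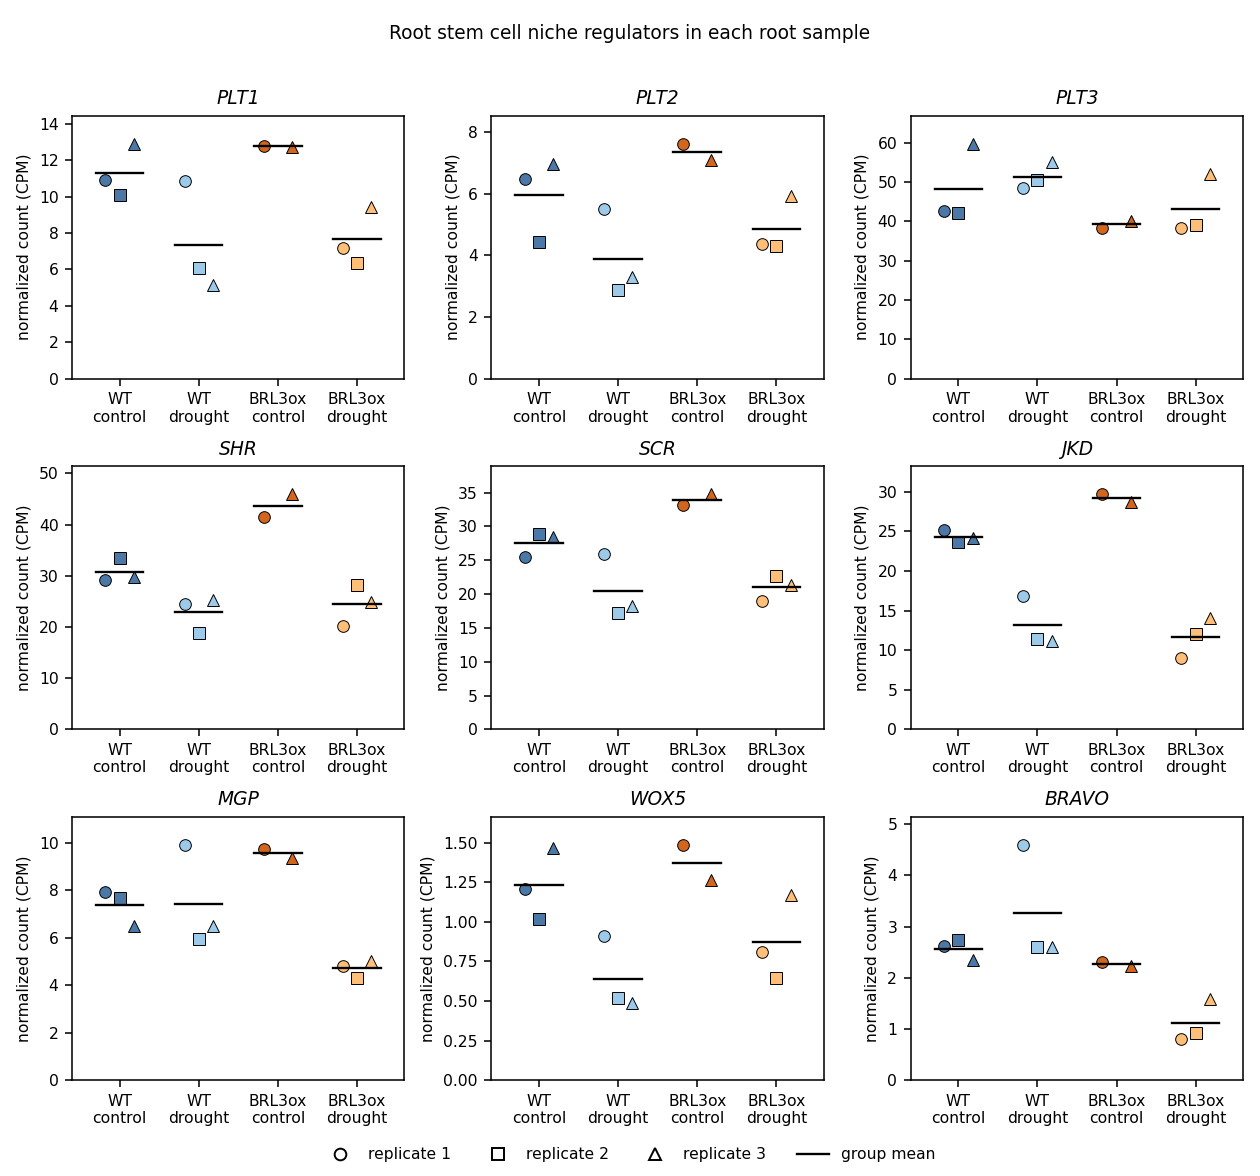
Normalized count (CPM, vertical axis from 0) of each of the 9 regulators in every sample, with the 4 genotype by condition groups on the horizontal axis, symbols for the replicate number and a line at the group mean. *JKD* lies between 23.7 and 29.7 CPM in the 5 control samples and between 8.97 and 16.8 CPM in the 6 drought samples, and *BRAVO* between 0.811 and 1.59 CPM in *BRL3ox* drought roots and between 2.24 and 4.59 CPM elsewhere.

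**Figure D2:**
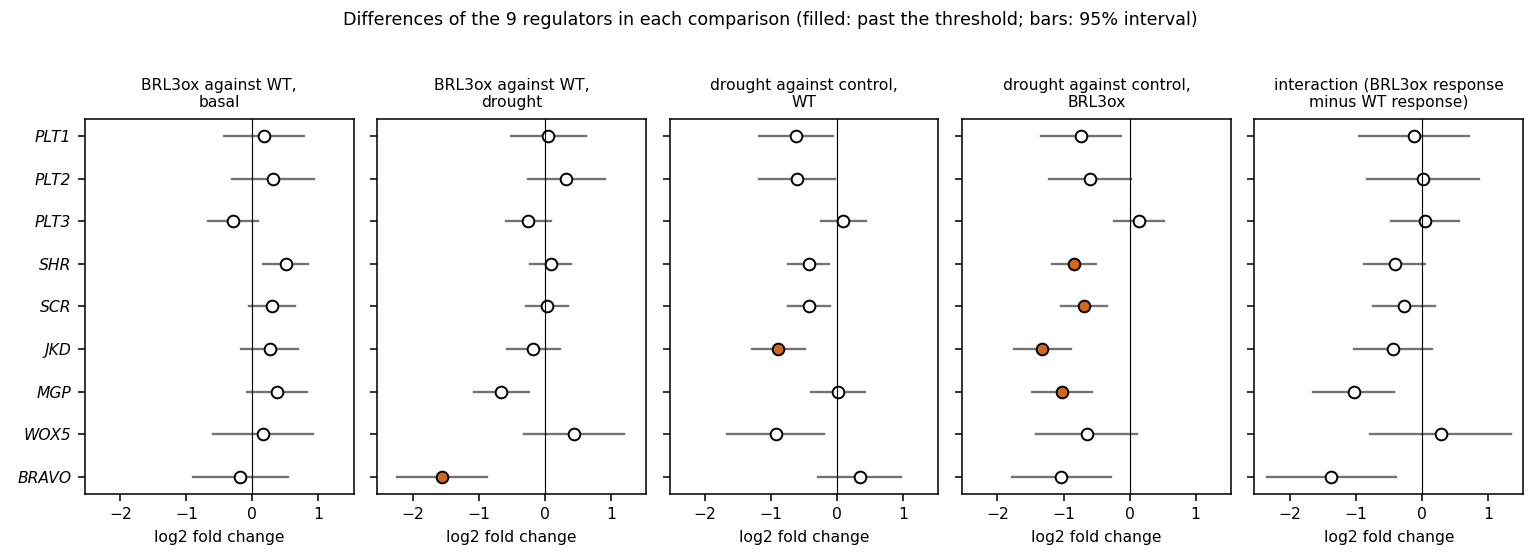
Log2 fold change of each regulator (points) with its 95% interval (bars) in the 5 comparisons, from edgeR's quasi-likelihood model of all 11 samples; filled points passed the threshold of the comparison. The filled points are *BRAVO* in drought between the genotypes (-1.56), *JKD* for drought in WT (-0.89), and *SHR*, *SCR*, *JKD* and *MGP* for drought in *BRL3ox* (-0.70 to -1.32).

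*JKD*, whose zinc finger product promotes *SCR* expression and restrains SHR movement, showed the largest fall with drought of the 9 in *BRL3ox* roots and the only call in WT roots. Its level was 25.2, 23.7 and 24.1 CPM in watered WT roots and 16.8, 11.4 and 11.1 CPM in WT roots under drought. In *BRL3ox* roots it was 29.7 and 28.7 CPM in control and 8.97, 12.0 and 14.1 CPM in drought. Drought and control samples did not overlap in either genotype, and the drought samples of the genotypes overlapped with each other. The log2 fold change with drought was -0.89 in WT (SE 0.18, adjusted p = 0.00841) and -1.32 in *BRL3ox* (SE 0.20, adjusted p = 0.00170) in the edgeR model, a fall by 1.85 and 2.50 times, lower in 3 of 3 drought samples of each genotype. Both calls held with each of the 11 samples left out in turn. The difference between the responses was -0.43 (SE 0.27), with a 95% interval from -1.02 to 0.16 and an unadjusted p of 0.135 in the same edgeR model. The 250 bases before the annotated start of *JKD* are shown because it was called in both genotypes and is the 1 regulator with a match to CGTGTG, 1 form of the brassinosteroid response element bound by BES1 and BZR1 (chr5:745171-745420 of TAIR10.1, plus strand, start sites from RefSeq).
JKD: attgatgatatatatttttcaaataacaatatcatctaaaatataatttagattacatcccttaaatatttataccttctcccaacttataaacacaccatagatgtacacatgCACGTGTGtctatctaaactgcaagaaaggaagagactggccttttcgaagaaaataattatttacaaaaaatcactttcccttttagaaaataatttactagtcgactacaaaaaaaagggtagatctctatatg
The capitals mark CACGTG, the G-box, at -136 from the start and CGTGTG at -134, which overlap.

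*SHR*, a GRAS protein made in the stele, and *SCR*, the GRAS protein that holds it in the nucleus of the endodermis, fell with drought in *BRL3ox* roots. *SHR* was measured at 29.2, 33.5 and 29.7 CPM in WT control, 24.5, 18.9 and 25.3 CPM in WT drought, 41.4 and 45.9 CPM in *BRL3ox* control and 20.2, 28.1 and 24.8 CPM in *BRL3ox* drought roots. Both *BRL3ox* control samples thus lay above every other sample, and the drought samples lay below the control samples of their own genotype. The fall with drought was 0.84 on the log2 scale in *BRL3ox* (log2 fold change -0.84, SE 0.15, adjusted p = 0.00421) and the log2 fold change in WT was -0.43 (SE 0.14, adjusted p = 0.0566), in the edgeR model. Between the genotypes at basal conditions, *SHR* had the smallest p of the 9, with a log2 fold change of 0.50 (SE 0.15, unadjusted p = 0.00770, adjusted p = 0.137), which did not pass the threshold. The interaction, -0.41 (SE 0.21, unadjusted p = 0.0759, edgeR), did not pass either, and its 95% interval ran from -0.87 to 0.05.

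*SCR* followed the same order of groups. It was measured at 25.4, 28.9 and 28.4 CPM in WT control, 26.0, 17.2 and 18.3 CPM in WT drought, 33.2 and 34.7 CPM in *BRL3ox* control and 18.9, 22.6 and 21.4 CPM in *BRL3ox* drought roots. In *BRL3ox* the groups did not overlap, while in WT the first drought sample lay among the controls. The log2 fold change with drought was -0.70 in *BRL3ox* (SE 0.16, adjusted p = 0.0114) and -0.43 in WT (SE 0.14, adjusted p = 0.0627) in the edgeR model. The *SCR* call in *BRL3ox* was lost without *BRL3ox* control replicate 1 (log2 fold change -0.73, adjusted p = 0.0578) and without replicate 3 (-0.66, adjusted p = 0.0736, edgeR), whereas that of *SHR* held with each sample left out.

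*MGP*, a zinc finger gene that SHR and SCR activate, fell with drought in *BRL3ox* roots. It was measured at 7.93, 7.66 and 6.48 CPM in WT control and 9.89, 5.92 and 6.48 CPM in WT drought roots, which overlap. In *BRL3ox* roots it was 9.73 and 9.37 CPM in control and 4.82, 4.29 and 5.00 CPM in drought, the lowest 3 values of the 11. The log2 fold change with drought was -1.02 in *BRL3ox* (SE 0.20, adjusted p = 0.00660) and 0.01 in WT (SE 0.19, adjusted p = 0.967) in the edgeR model. The interaction of -1.03 (SE 0.28, 95% interval -1.65 to -0.42, unadjusted p = 0.00356, adjusted p = 0.283, edgeR) missed its threshold of 0.0025, and so the responses were not called different. Between the genotypes in drought *MGP* was lower in 3 of 3 *BRL3ox* samples (log2 fold change -0.66, SE 0.19, adjusted p = 0.0709, edgeR), which was not called. Without *BRL3ox* control replicate 1, the fall in *BRL3ox* was no longer called (-0.99, adjusted p = 0.0508, edgeR).

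*BRAVO*, the R2R3-MYB repressor of quiescent centre divisions, was the 1 regulator called between the genotypes, in the drought comparison. It was measured at 2.63, 2.75 and 2.34 CPM in WT control and 4.59, 2.60 and 2.59 CPM in WT drought roots. In *BRL3ox* roots it was 2.30 and 2.24 CPM in control and 0.811, 0.923 and 1.59 CPM in drought. The *BRL3ox* drought samples lay below the other 8 samples, and WT drought replicate 1 above all of them. In drought the level in *BRL3ox* roots was 2.94 times lower than in WT roots (log2 fold change -1.56, SE 0.30, adjusted p = 0.0244, edgeR). This call was lost without WT drought replicate 1 (log2 fold change -1.23, adjusted p = 0.0518), without *BRL3ox* drought replicate 1 (-1.37, adjusted p = 0.0689), without *BRL3ox* drought replicate 2 (-1.44, adjusted p = 0.106) and where the edgeR model held the WT drought and *BRL3ox* drought samples alone (-1.55, adjusted p = 0.0557). Over all fits with 1 sample left out the adjusted p ranged from 0.0197 to 0.106.

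With drought, the log2 fold change of *BRAVO* was -1.03 in *BRL3ox* (SE 0.34, adjusted p = 0.0516) and 0.34 in WT (SE 0.29, adjusted p = 0.437) in the edgeR model, neither of which was called. The value in *BRL3ox* lay close to the threshold and was called with RLE scaling (adjusted p = 0.0499), with a minimum of 10 counts in every sample (adjusted p = 0.0452), in edgeR's likelihood ratio test (adjusted p = 0.0224) and in DESeq2 (adjusted p = 0.0298), at log2 fold changes of -1.02 to -1.03. The interaction was -1.37 (SE 0.44, 95% interval -2.35 to -0.40, unadjusted p = 0.0105, adjusted p = 0.340, edgeR) and was not called either. At basal conditions the genotypes differed by -0.18 (SE 0.32), with a 95% interval from -0.90 to 0.53. The sequence before the start of *BRAVO* is shown because it is the regulator called between the genotypes and the 1 of the 9 with a match to CGTGCG, the other form of the brassinosteroid response element (chr5:5876863-5877112 of TAIR10.1, plus strand, start site from RefSeq).
BRAVO: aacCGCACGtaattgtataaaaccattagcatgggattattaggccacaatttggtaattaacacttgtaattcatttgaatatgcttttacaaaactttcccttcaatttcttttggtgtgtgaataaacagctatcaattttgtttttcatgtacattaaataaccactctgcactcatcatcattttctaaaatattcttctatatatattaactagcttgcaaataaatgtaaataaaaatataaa
The capitals mark the match at -247 from the start, which lies on the opposite strand and therefore reads CGCACG. In windows from 250 bases before to 50 bases after the start, searched on both strands, CGTGCG occurred in 1.96% of 27443 annotated genes, CGTGTG in 6.52%, CACGTG in 7.68% and the auxin response element TGTCTC in 14.2%. The first 3 were each found in 1 of the 9 regulators and TGTCTC in 0 of 9. A match is a run of letters and says nothing of binding, and no match says only that the letters are not in this window.

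*PLT1* and *PLT2*, the PLETHORA genes that act redundantly in the root meristem, had lower means in drought in both genotypes without passing the threshold. *PLT1* was measured at 10.9, 10.1 and 12.9 CPM in WT control, 10.8, 6.08 and 5.13 CPM in WT drought, 12.8 and 12.7 CPM in *BRL3ox* control and 7.16, 6.37 and 9.44 CPM in *BRL3ox* drought roots. In *BRL3ox* the groups did not overlap, and in WT only drought replicate 1 reached the controls. The log2 fold change was -0.62 in WT (SE 0.25, adjusted p = 0.114) and -0.74 in *BRL3ox* (SE 0.27, adjusted p = 0.0812) in the edgeR model. *PLT2* was measured at 6.46, 4.43 and 6.97 CPM in WT control, 5.50, 2.86 and 3.29 CPM in WT drought, 7.62 and 7.09 CPM in *BRL3ox* control and 4.37, 4.29 and 5.94 CPM in *BRL3ox* drought roots, again with overlap in WT only. Its log2 fold change was -0.61 in WT (SE 0.26, adjusted p = 0.131) and -0.60 in *BRL3ox* (SE 0.28, adjusted p = 0.159, edgeR). The difference between the genotypes' responses had a 95% interval from -0.95 to 0.71 for *PLT1* and from -0.83 to 0.86 for *PLT2*, which leaves room for differences as large as the responses themselves.

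*PLT3*, a PLETHORA gene that also acts in lateral root formation, had values with drought close to those of the controls. Its level was 42.7, 42.1 and 59.8 CPM in WT control, 48.5, 50.7 and 55.2 CPM in WT drought, 38.3 and 40.2 CPM in *BRL3ox* control and 38.4, 39.2 and 52.1 CPM in *BRL3ox* drought roots. All neighbouring groups overlapped in the order of their means. The log2 fold change with drought was 0.09 in WT (SE 0.15, 95% interval -0.24 to 0.43) and 0.14 in *BRL3ox* (SE 0.17, 95% interval -0.24 to 0.52), and both intervals end above the log2 fold changes called for *JKD*. The difference of *BRL3ox* from WT was -0.30 without drought (SE 0.17, adjusted p = 0.453) and -0.25 with drought (SE 0.15, adjusted p = 0.360, edgeR).

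*WOX5*, the homeodomain gene of the quiescent centre, was detected at 9 to 31 counts per sample. Its level was 1.21, 1.02 and 1.47 CPM in WT control, 0.908, 0.520 and 0.486 CPM in WT drought, 1.49 and 1.27 CPM in *BRL3ox* control and 0.811, 0.646 and 1.17 CPM in *BRL3ox* drought roots. Drought samples lay below the controls of their own genotype in both cases. The log2 fold change with drought was -0.93 in WT (SE 0.33, adjusted p = 0.0762) and -0.65 in *BRL3ox* (SE 0.34, adjusted p = 0.209) in the edgeR model, neither called at this depth. The difference of *BRL3ox* from WT was 0.16 without drought (95% interval -0.59 to 0.91) and 0.45 with drought (95% interval -0.31 to 1.2).

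Over the 9 regulators, the median log2 fold change was 0.26 at basal conditions, 0.03 between the genotypes in drought, -0.43 for drought in WT, -0.74 for drought in *BRL3ox* and -0.27 for the interaction, while the median of all genes tested lay between -0.02 and 0.01 in each comparison. At basal conditions, *PLT2*, *SHR*, *SCR*, *JKD* and *MGP* were higher in both *BRL3ox* samples than in all WT samples, and *PLT3* and *BRAVO* lower (5 and 2 of 9, beside 18.2% and 18.8% of all genes). With drought in *BRL3ox*, 8 of 9 regulators, all except *PLT3*, had every drought sample below both controls, beside 28.9% of all genes. In WT the same held for *SHR*, *WOX5* and *JKD* (3 of 9, beside 17.2%), and 6 of 9 had an unadjusted p under 0.05, beside 33.6% of all genes.

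The number of calls in WT turned on 1 library. WT drought replicate 1 was the highest of its group for 7 of the 9 regulators, all except *PLT3* and *SHR*, whereas it was the highest for 40.1% of all genes tested. Without it, 5 of 9 regulators were called lower with drought in WT, *PLT1* (log2 fold change -1.01), *PLT2* (-0.95), *SCR* (-0.63), *WOX5* (-1.28) and *JKD* (-1.11), with adjusted p values from 0.00261 to 0.0298 in the edgeR model and beside 5.38% of genes called lower and 14.1% in either direction. *BRAVO* then lay at 0.01 (SE 0.26) and *MGP* at -0.25 (SE 0.14) with drought in WT. WT drought replicate 1 was picked by the levels of the 9 themselves. Leaving out the highest drought value of a gene lowers its drought fold change. The rise in calls therefore follows in part from that choice, and the share of all genes is not a like comparison. *BRL3ox* drought replicate 3 was likewise the highest of its group for 7 of 9 regulators, beside 31.9% of all genes. Without it, *SHR*, *SCR*, *JKD*, *MGP* and *BRAVO* were called lower with drought in *BRL3ox*, beside 13.9% of genes called in either direction. The share called lower in this fit is not given here, so that share is wider than the count beside it. This sample, too, was picked by the levels of the 9.

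**Figure D3:**
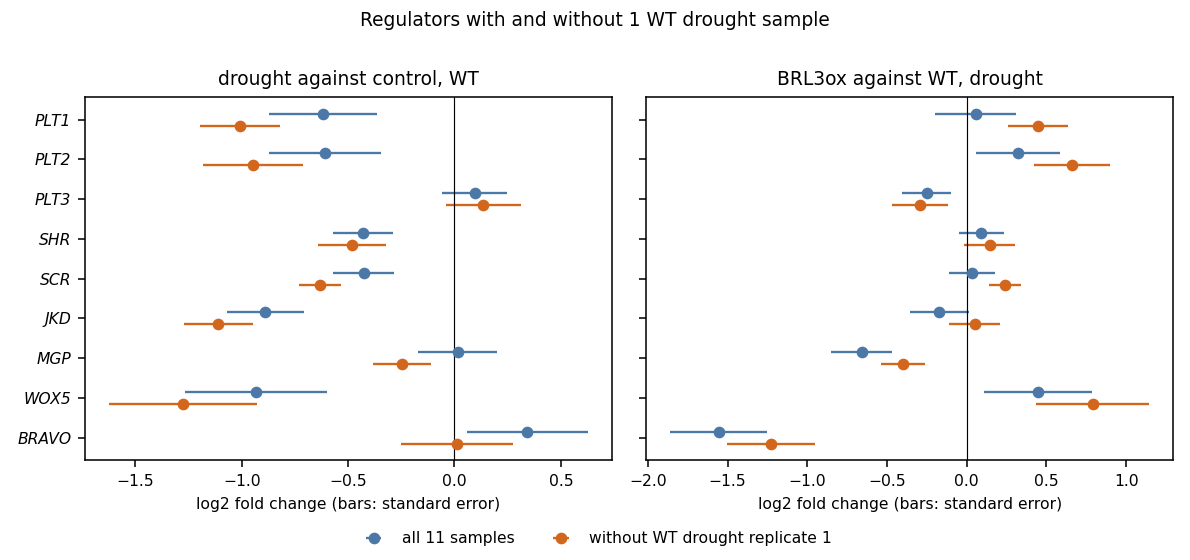
Log2 fold change (horizontal axis, bars are standard errors) of each regulator with all 11 samples and without WT drought replicate 1, for drought against control in WT and for *BRL3ox* against WT in drought. Without that sample *PLT1* moves from -0.62 to -1.01 in WT and *BRAVO* from -1.56 to -1.23 between the genotypes. The sample was picked by the levels of the regulators themselves.

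Markers of the cells in which these genes act were measured beside them. The summed level of 8 dividing cell markers, among them *KNOLLE* and *CDKB2;1*, lay between 238 and 308 CPM in all samples, and 0 of 8 were called in any comparison by edgeR or DESeq2, with 0 to 4 of 8 at an unadjusted p under 0.05. The 4 were at basal conditions, beside 16.0% of all genes in edgeR. There, all 8 had lower levels in *BRL3ox* than in WT (median log2 fold change -0.20). Between the genotypes in drought 5 of 8 were lower and 3 higher (median -0.05). The 4 endodermis markers *CASP1*, *CASP2*, *CASP4* and *CASP5*, which build the Casparian strip, summed to 91.4 to 131 CPM in WT control, 84.2 to 124 CPM in WT drought, 99.5 to 103 CPM in *BRL3ox* control and 42.3 to 67.7 CPM in *BRL3ox* drought roots, and none was at 0 in any sample. This sum was lowest in the *BRL3ox* drought samples, in which *SHR*, *SCR*, *JKD* and *MGP* were called lower than in their controls. *CASP5*, the least abundant of the 4, went the other way, with a mean of 1.35 CPM in *BRL3ox* drought and 0.902 to 1.08 CPM in the other groups (log2 fold change with drought in *BRL3ox* 0.36, not called). *CASP1*, *CASP2* and *CASP4* were called lower with drought in *BRL3ox* (3 of 4, log2 fold changes -0.88 to -1.02, beside 6.98% of all genes). *CASP1* and *CASP2* were called lower in *BRL3ox* than in WT in drought (2 of 4, -0.91 and -0.95, beside 2.12%). In the interaction 0 of 4 were called, with 2 of 4 at an unadjusted p under 0.05 in edgeR (10.8% of all genes). With drought in WT, 0 of 4 were called by edgeR or DESeq2 (0 of 4 at an unadjusted p under 0.05). The 4 root cap factors summed to 16.0 to 20.3 CPM in WT control, 10.7 to 11.8 CPM in WT drought, 19.8 to 23.5 CPM in *BRL3ox* control and 5.95 to 11.5 CPM in *BRL3ox* drought roots. *FEZ* (-1.83) and *SMB* (-1.02), which set division and maturation of root cap stem cell daughters, were called lower with drought in WT. *FEZ* (-1.88), *SMB* (-1.27), *BRN1* (-1.04) and *BRN2* (-1.55) were called lower in *BRL3ox*. These were 2 of 4 in WT and 4 of 4 in *BRL3ox*, beside 4.84% and 6.98% of all genes called lower. All 4 had negative log2 fold changes in WT too. *FEZ* rested on 5 to 47 counts per sample, so its values are imprecise. The part of these cell types in the values of the 9 regulators was not tested. The *CASP* count for drought in *BRL3ox* went from 3 to 0 without either *BRL3ox* control sample and to 1 without *BRL3ox* drought replicate 1. That between the genotypes went from 2 to 0 without WT drought replicate 1 or 3 or *BRL3ox* drought replicate 1 or 2, and to 1 without WT control replicate 1, WT drought replicate 2 or either *BRL3ox* control sample.

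**Figure D4:**
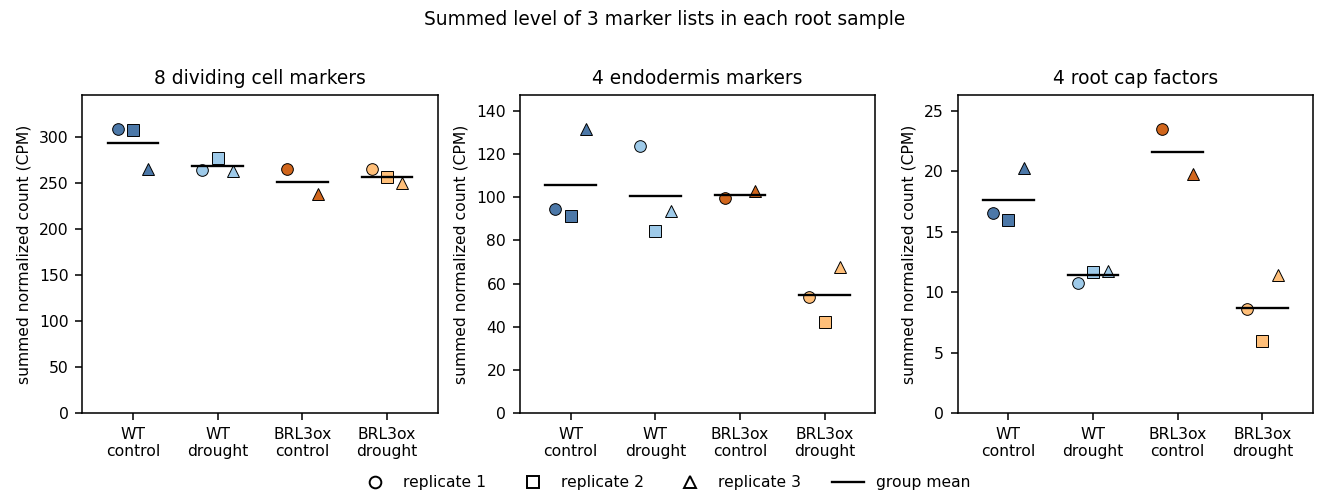
Summed normalized count (CPM, vertical axes from 0) of 8 dividing cell markers, 4 endodermis markers and 4 root cap factors in every sample, with a line at the group mean. The endodermis sum is 42.3 to 67.7 CPM in *BRL3ox* drought roots and 84.2 to 131 CPM in the other groups, and the root cap sum is at most 11.8 CPM in the drought samples.

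Other genes of the same pathways moved in part. Of 7 partners and targets of SHR and SCR, 2 were called lower with drought in WT. These were *SCL3* (log2 fold change -0.59), a GRAS gene, and the zinc finger gene *NUC* (-1.0). In *BRL3ox* 2 were called lower, *NUC* (-1.1) and AT3G45260 (-0.93), annotated as a C2H2-like zinc finger protein. *SCL3* had -0.56 in *BRL3ox* (adjusted p = 0.0160, edgeR), a fall of 1.47 times, short of the fold change threshold. AT3G45260 had -0.40 in WT, not called. With drought 7 of 7 had negative log2 fold changes in WT and 5 of 7 in *BRL3ox*. *CYCD6;1*, the D-type cyclin gene that SHR and SCR activate, had values in the other direction between the genotypes. It lay between 0.648 and 1.77 CPM in WT drought and between 1.96 and 2.61 CPM in *BRL3ox* drought roots, which do not overlap. Its log2 fold change of 1.19 (SE 0.38, adjusted p = 0.0981) was not called in the edgeR model. It was called by DESeq2, the likelihood ratio test, the replicate block and the fit without WT drought replicate 2. DESeq2 also called *CYCD6;1* with drought in WT, where edgeR gave -1.1, and did not call *SCL3*. The retinoblastoma gene *RBR1*, which binds SCR, stayed between 55.4 and 69.5 CPM in the 11 samples, and it was not called in any comparison. Of 9 genes of the RGF peptide pathway, which acts on PLT protein levels, AT5G48940 was called lower with drought in both genotypes. The log2 fold change of this leucine-rich repeat kinase gene was -0.63 in WT and -0.64 in *BRL3ox*. *RGF1* (-2.10), AT4G26540 (-1.09) and AT5G56040 (-0.84) were called lower in *BRL3ox* alone. In WT AT5G56040 had -0.56 (adjusted p = 0.00615, edgeR), a fall of 1.47 times, short of the fold change threshold. *RGF1* (-0.94) and AT4G26540 (-0.40) were not called there either. With drought 8 of 9 had negative log2 fold changes in each genotype. *RGF1* rested on 3 to 23 counts per sample, so its values are imprecise. Of 4 other PLT and AIL genes, 3 were tested and 0 called in any comparison in edgeR, with 0 to 2 of 3 at an unadjusted p under 0.05, while DESeq2 called AT5G57390 between the genotypes in drought. *BBM* lay between 10.5 and 25.3 CPM.

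Of 8 genes around WOX5, 7 were tested. *CLV1*, a receptor kinase that limits stem cell fate in the root tip with ACR4, had a higher level in drought in *BRL3ox* than in WT (log2 fold change 0.80, SE 0.17, adjusted p = 0.0279, edgeR). *ARF10*, an auxin response factor gene of the root cap, was called lower with drought in *BRL3ox* (-0.69, SE 0.12, adjusted p = 0.00294, edgeR). In WT *ARF10* had -0.40 (adjusted p = 0.0273, edgeR), a fall of 1.32 times, short of the fold change threshold. The corepressor gene *TPL* was measured at 202 to 292 CPM and was not called. Of 4 genes tied to quiescent centre division or identity, *PSK2*, which encodes a phytosulfokine precursor, rose with drought in WT (1.1) and in *BRL3ox* (1.97). Between the genotypes, *PSK2* was measured at 31.3 to 42.4 CPM in *BRL3ox* control and 74.4 to 219 CPM in WT control roots. In drought it was 107 to 163 CPM in *BRL3ox* and 243 to 336 CPM in WT roots. The genotypes did not overlap in either condition. The log2 fold changes of *PSK2*, -1.87 at basal conditions (adjusted p = 0.0597) and -1.01 in drought (adjusted p = 0.108), were not called in the edgeR model. Both were called by DESeq2, the likelihood ratio test and the replicate block. *AGL42*, used as a quiescent centre marker, lay between 27.9 and 35.7 CPM in the 11 samples and was not called. *BES1* and *BZR1*, the transcription factors of the brassinosteroid pathway, were not called in any comparison (0 of 2 by edgeR or DESeq2, with 0 to 1 of 2 at an unadjusted p under 0.05 in edgeR).

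The other tissue lists gave few calls. Of 4 lateral root primordium markers, among them *LBD16*, and of 3 root hair markers, among them *COBL9*, 0 were called in any comparison in edgeR, with 0 to 2 of each list at an unadjusted p under 0.05, while DESeq2 called *COBL9* between the genotypes in drought. Of 4 vascular markers, the phloem sucrose transporter gene *SUC2* rose with drought in *BRL3ox* (log2 fold change 0.87), and of 4 root tissue markers the aquaporin gene *TIP2;3* fell in WT (-1.35) and in *BRL3ox* (-2.06). Of 6 shoot markers, 5 were tested and 0 called by edgeR or DESeq2, with 0 to 2 of 5 at an unadjusted p under 0.05. Of 7 touch and wound markers, edgeR called the jasmonate repressor gene *JAZ10* lower in *BRL3ox* than in WT at basal conditions (-2.09). With drought it called *JAZ10* higher in WT (1.51) and in *BRL3ox* (2.76), and *TCH4*, a cell wall enzyme gene, in both (0.88 and 1.67). *WRKY40* (1.54) and *JAZ1* (1.15) were called higher in *BRL3ox* alone. With drought 6 of 7 had positive log2 fold changes in WT and 7 of 7 in *BRL3ox*. DESeq2 also called *WRKY40* and *JAZ1* with drought in WT and *STZ* in *BRL3ox*. At basal conditions it called 4 of 7, *TCH3*, *TCH4*, *WRKY40* and *JAZ10*, all with lower means in *BRL3ox*. In edgeR 5 of 7 had an unadjusted p under 0.05 there, beside 16.0% of all genes. DESeq2 also called *JAZ10* between the genotypes in drought and in the interaction. The part of touch or wounding in the values of the 9 regulators was not tested. Of the calls of the main edgeR model in these lists, those of *NUC* in both genotypes and of AT4G26540, AT5G56040, *ARF10* and *BRN2* in *BRL3ox*, of *JAZ10* in both genotypes, and of *TIP2;3* and *TCH4* in *BRL3ox*, all for drought against control, held with each of the 11 samples left out, and each other call was lost in at least 1 such fit.

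Across the 11 samples, the log2 CPM of *PLT1* and *WOX5* had a Pearson r of 0.95, as had *PLT2* and *WOX5*, and r was 0.93 for *SCR* and *JKD* and 0.92 for *PLT1* and *PLT2* and for *SHR* and *SCR*. *BRAVO* was most like *MGP* among the 9 (r = 0.79), and *PLT3* had a negative r with each of the others except *BRAVO* (0.41). Among all genes tested, the pattern most like *PLT1* and *WOX5* was that of AT5G48940 (r = 0.98 and 0.97), which is on the RGF pathway list above. The nearest genes for the rest were AT3G63400 for *PLT2* (r = 0.96), *PER4* for *PLT3* (0.97), AT5G03470 for *SHR* (0.98), AT3G17100 for *SCR* (0.98), AT3G50120 for *BRAVO* (0.97), AT4G33080 for *JKD* (0.98) and AT5G12310 for *MGP* (0.97). These correlations describe 11 samples that share libraries and group differences and carry no test.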

How the data were processed

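RNA was extracted from roots of 11 samples, and the authors prepared stranded polyA libraries, sequenced 50-base single-end reads, trimmed 5 bases from the 3′ end, filtered by quality, mapped to TAIR10 with HISAT2 2.1.0 and counted with HTSeq 0.9.1, as the paper's methods and the submitters' processing notes give. Each deposited file holds the raw counts of 1 sample. The annotation release and the strand setting are not given in the sources used here. HTSeq's 5 summary classes, 10.5 to 12.9% of the counts in a file, were left out. Here, edgeR 4.0.16 (R 4.3.3, limma 3.58.1) filtered genes by group (filterByExpr), scaled by TMM and fitted 1 quasi-likelihood model with 4 group coefficients to all 11 samples (7 residual and 3.48 prior degrees of freedom, common biological coefficient of variation 0.159). Standard errors were the log2 fold change divided by the square root of F. Calls used an FDR under 0.05 over all 20718 genes tested and a fold change over 1.5, the threshold the paper's results use. Its methods give a fold change of 2 for pairwise comparisons, which was run as an alternative. The interaction used an unadjusted p under 0.0025, after the paper's methods. Levels per kb used the exon union of the RefSeq annotation of TAIR10.1, matched by gene identifier. Correlations were taken over log2 CPM (prior count 2). The alternatives were RLE scaling, DESeq2 1.42.0, edgeR's likelihood ratio test, no filter or a minimum of 10 counts per sample, a fit to the compared groups alone, the replicate number as a block, robust dispersion, a fold change of 2, and each sample left out. The tests were checked on simulated data. The 9 members and the gene lists were chosen with earlier results of these data known. All 9 are named, and of each list the genes called in any comparison and the gene with the highest mean CPM. 1 gene of the marker lists is not reported here. The p-values set a difference between groups against the spread between samples of a group. That spread was estimated over all 4 groups together and may be technical in part.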

Additional observations from a re-analysis of the deposited data

How the results depend on the processing

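Each value was recomputed under the alternatives. The direction and the call of a regulator were kept in 332 of 346 values under other settings and in 458 of 495 values with 1 sample left out. At basal conditions 0 of 9 were called in each of the 11 fits with 1 sample left out and under each other setting. Between the genotypes in drought the count was 1 in the main model, 2 with DESeq2 and with the likelihood ratio test (*MGP* joined *BRAVO*), 0 with only the groups compared, and 0 to 1 with 1 sample left out. For drought in WT it was 1 in the main model, 2 with the likelihood ratio test (*WOX5* joined *JKD*), 0 at a fold change over 2, and 1 to 5 with 1 sample left out. For drought in *BRL3ox* it was 4, beside 16.1% of all genes called in either direction (6.98% called lower). The shares that follow are also for either direction. It was 5 with RLE scaling (16.1%), DESeq2 (17.8%) and the minimum of 10 counts (16.0%), where *BRAVO* joined. It was also 5 with only the groups compared (*PLT1*, adjusted p = 0.0205 in edgeR, beside 18.8%). With the likelihood ratio test it was 6 (*BRAVO* and *PLT1*, adjusted p = 0.0478, beside 18.6%). At a fold change over 2 it was 2, beside 9.77%. The highest count with 1 sample left out was 6, without WT drought replicate 1 (17.1%). Without *BRL3ox* control replicate 1, *SCR* and *MGP* were no longer called. For the interaction it was 0, 1 with DESeq2 and with the likelihood ratio test (*MGP*), and 0 to 1 with 1 sample left out (*MGP* without WT drought replicate 2, *BRAVO* without *BRL3ox* drought replicate 3). Where 1 of the *BRL3ox* control samples was left out, the lone sample was assumed to vary like the other groups.

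With the replicate number as a block, the calls of the 9 stayed at 0, 1, 1, 4 and 0 in the 5 comparisons. The shares of all genes called were then 3.47%, 5.95%, 13.9%, 18.4% and 1.28%. With this block 2 values near 0 turned sign, *MGP* for drought in WT (-0.0064) and *PLT1* in the interaction (0.00181). Deviations from group means correlated at over 0.1 in 11 of 15 same-numbered pairs (range -0.09 to 0.41, mean 0.15). In addition, 8 of 11 samples correlated best with their own number. Deviations sum to 0 within a group, so the mean of -0.07 for other numbers largely follows from that of the same numbers. The 2 *BRL3ox* control samples mirror each other, so their correlations are not separate values. The pattern is a hint and no test that some numbers share a source. The numbers were taken as pairs only if each pair passed 0.1 or the labels gave a shared source, and neither held. With 1 sample left out, signs turned between the genotypes in drought for *PLT1* (-0.15 to 0.45), *SHR* (-0.029 to 0.21), *SCR* (-0.079 to 0.24) and *JKD* (-0.33 to 0.049), for drought in WT for *MGP* (-0.25 to 0.15), for drought in *BRL3ox* for *PLT3* (-0.016 to 0.22), and in the interaction for *PLT1* (-0.32 to 0.27), *PLT2* (-0.17 to 0.35) and *PLT3* (-0.14 to 0.13). None of these was called in the main model. The cause of these changes was not tested. Low counts limit *WOX5* and *BRAVO* the most among the 9. Of the gene lists, added to the alternatives after seeing the data, the root cap count for drought ranged from 0 to 3 in WT and from 1 to 4 in *BRL3ox*, that of the RGF list from 0 to 2 and from 2 to 5, and *CLV1* was not called between the genotypes in drought with only the groups compared and in 5 of 11 fits with 1 sample left out.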
